A study of Homo sapiens with 9 samples.

Results

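The antisense RNAs described here were all gene symbols in the count files that end in -AS1 and that had at least 150 reads summed over the 9 libraries. This gave 272 of the 879 -AS1 symbols and of the 26364 genes in the files; 607 -AS1 symbols were under the minimum, and 741 had at least 1 count. Each RNA was set beside the sense gene that its prefix names: 268 partners were found under that prefix and 2 under an older RefSeq synonym, and RPARP-AS1 and PGM5P3-AS1 had none. The members were chosen by their summed counts, so their levels are given as a description. Just inside it were MCPH1-AS1 with 150, PLCG1-AS1 with 151 and MATN1-AS1 with 154 counts, and just outside it NDUFA6-AS1 with 148 and BCDIN3D-AS1 with 146.

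RNA was measured in MDA-MB-231, a cell line from a human triple-negative breast adenocarcinoma, by poly(A)-selected sequencing with a strand-specific kit. The cells stably carried lentiviral pLVX-MEL-18 T334A, pLVX-MEL-18 WT or the empty pLVX vector, were kept in DMEM with 10% FBS for 48 h, and gave 3 libraries a group. MEL-18, the product of PCGF2, is a RING finger protein of Polycomb repressive complex 1, and T334A replaces the threonine that the series describes as a phosphorylation site with alanine. All groups share the parental line and the viral backbone, no library of uninfected cells was analysed here, and nothing in the labels says whether the biological replicates were infected separately. P-values thus measure the spread between these libraries, and an effect of a construct and of the cells that took it up cannot be told apart.

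Library totals ran from 31643722 to 37005302 counts, and 14738 genes passed the filter on low counts. PCGF2 averaged 1420 CPM (counts scaled to library size) with MEL-18 T334A and 1286 CPM with MEL-18 WT, against 22.7 CPM with the vector. Among markers of the line, VIM averaged 1545, 1481 and 1447 CPM and KRT8 304, 321 and 305 CPM in T334A, WT and vector cells. ESR1, PGR and CDH1 were near 0 in every group. ERBB2, the other receptor low in triple-negative cells, was not: it averaged 69.9, 68.6 and 63.8 CPM, above the median of 24.5 CPM of all tested genes. Of the other epithelial markers, KRT18 averaged 254, 310 and 299 CPM, KRT19 116, 106 and 86.6 CPM and EPCAM 12.2, 10.1 and 7.47 CPM. Of 6 markers of other cell types, 5 had a count in T334A cells and 6 in WT and in vector cells, CD3E being at 0 in T334A cells. Their summed level was 60.7 to 68.5, 66.2 to 69.4 and 64.3 to 65.2 CPM, nearly all of it CD68 and COL1A1. Without those genes the sum was 0.451 to 0.962 CPM in T334A, 0.516 to 1.08 CPM in WT and 1.58 to 1.69 CPM in vector libraries, and the part of this difference in the results was not tested. T334A replicate 1 had the most genes with a count, 20323 against 18956 to 19636 elsewhere, and replicate 3 stood farthest from its group. Without replicate 1, 54 antisense RNAs were called between T334A and vector and 44 between T334A and WT; without replicate 3 the counts were 68 and 57, beside 72 and 54 with all libraries. The drop was not particular to replicate 1. Without T334A replicate 2, 19 were higher and 31 lower against vector, and 22 were higher and 21 lower against WT.

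Natural antisense transcripts are RNAs read from the strand opposite to a gene. Many start from the same stretch of promoter DNA and run away from the gene (divergent or head-to-head pairs), others overlap its exons or lie in its introns, and most are long noncoding RNAs present at low levels. Known cases act on their neighbour by recruiting chromatin complexes, by the act of transcription across it or by pairing with its RNA, while others work elsewhere or have no known role. Polycomb complexes are known to silence developmental genes, and several noncoding RNAs have been described as partners of such complexes.

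Strand matters for every value below. The kit keeps the strand of the RNA, but the setting used for counting is not given in the sources used here. If reads had been counted without strand, those from exons that overlap could not be told apart between an antisense RNA and its partner. In GENCODE release 29 (on GRCh38, a later build than the hg19 of the files) 267 pairs were annotated, all on opposite strands. Exons overlapped in 179 pairs, gene bodies overlapped with the exons apart in 41, and 47 pairs did not overlap. The starts of 104 pairs lay within 1000 bases of each other.

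Promoter windows, 250 bases before to 50 after the start (300 in all), are shown for the named antisense RNAs PRKAG2-AS1, HHIP-AS1 and PLBD1-AS1, which start near a partner that also rose in at least 1 comparison, and for NFYC, the partner of the RNA that differed most. The sequences are RefSeq's on GRCh38.p14, each on the strand of its gene. Other pairs of this kind, among them PRKCQ, CEBPA, USP2, BAIAP2, TGFB2 and PSMG3, are not printed. A window was found for 172 antisense RNAs and 226 partners. PRKAG2-AS1 lies at chr7:151876792-151877091 (plus strand) and PRKAG2 at chr7:151877066-151877365 (minus strand), with RefSeq starts 73 bases apart; HHIP-AS1 lies at chr4:144645970-144646269 (minus strand), where its window shares 236 bases with that of HHIP; PLBD1-AS1 lies at chr12:14567482-14567781 (plus strand), its RefSeq start 151 bases from that of PLBD1; NFYC lies at chr1:40691454-40691753 (plus strand). HHIP-AS1 and HHIP run away from each other from these starts, whereas PRKAG2-AS1 and PLBD1-AS1 run towards and across the start of their partner. Exons of these pairs share 84 (PRKAG2), 178 (HHIP) and 259 (PLBD1) bases in GENCODE, where the HHIP-AS1 start lies 15336 bases from that of HHIP. Capitals mark CCAAT and GGGCGG on either strand (ATTGG and CCGCCC on the printed one).
PRKAG2-AS1: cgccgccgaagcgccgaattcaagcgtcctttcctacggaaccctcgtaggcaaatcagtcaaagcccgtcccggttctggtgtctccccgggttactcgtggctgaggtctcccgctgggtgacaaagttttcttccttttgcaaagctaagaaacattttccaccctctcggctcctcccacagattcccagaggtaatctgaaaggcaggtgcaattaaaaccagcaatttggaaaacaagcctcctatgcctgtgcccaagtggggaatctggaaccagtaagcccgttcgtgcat
PRKAG2: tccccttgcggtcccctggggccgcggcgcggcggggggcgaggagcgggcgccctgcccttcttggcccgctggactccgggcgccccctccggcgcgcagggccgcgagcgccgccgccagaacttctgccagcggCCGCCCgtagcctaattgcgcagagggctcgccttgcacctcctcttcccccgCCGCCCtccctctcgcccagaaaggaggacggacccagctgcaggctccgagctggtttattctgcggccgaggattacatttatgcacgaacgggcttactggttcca
HHIP-AS1: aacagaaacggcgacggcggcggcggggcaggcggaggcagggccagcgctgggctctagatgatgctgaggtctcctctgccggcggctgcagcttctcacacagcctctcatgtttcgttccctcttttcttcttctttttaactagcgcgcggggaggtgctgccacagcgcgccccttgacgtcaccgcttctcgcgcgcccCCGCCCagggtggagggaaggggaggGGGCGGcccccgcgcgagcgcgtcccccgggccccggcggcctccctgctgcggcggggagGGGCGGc
PLBD1-AS1: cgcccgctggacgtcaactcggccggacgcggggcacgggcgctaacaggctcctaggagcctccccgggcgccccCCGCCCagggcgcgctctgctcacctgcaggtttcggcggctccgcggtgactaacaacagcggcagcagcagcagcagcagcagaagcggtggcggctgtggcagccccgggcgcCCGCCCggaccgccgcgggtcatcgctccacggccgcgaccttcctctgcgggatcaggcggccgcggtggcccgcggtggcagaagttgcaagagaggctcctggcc
NFYC: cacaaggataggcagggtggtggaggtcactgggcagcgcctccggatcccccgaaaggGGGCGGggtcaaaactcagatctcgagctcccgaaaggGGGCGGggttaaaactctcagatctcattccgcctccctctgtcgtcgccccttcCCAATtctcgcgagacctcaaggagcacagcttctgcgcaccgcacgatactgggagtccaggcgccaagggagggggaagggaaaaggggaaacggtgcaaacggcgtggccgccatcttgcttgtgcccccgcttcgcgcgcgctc
The NFYC window held 1 CCAAT, 98 bases before the start and apart from its GGGCGG matches. CCAAT is the motif that the NF-Y complex, of which NFYC encodes a subunit, is known to bind; it was in 34.6% of all 35116 windows of this length, and GGGCGG in 44.95%. The PRKAG2, HHIP-AS1 and PLBD1-AS1 windows held 2, 3 and 2 GGGCGG matches and 34, 34 and 38 CpG dinucleotides, against a median of 14 over all windows, and PRKAG2-AS1 held no match and 16 CpG. A match describes the letters only.

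NFYC-AS1 was nearly lost in both MEL-18 lines. It had 2.20, 1.95 and 1.66 CPM in T334A libraries and 2.10, 1.76 and 1.90 CPM in WT libraries, against 41.7, 36.7 and 36.1 CPM in vector libraries. Every vector library was above every MEL-18 library by a wide margin, and the MEL-18 groups overlapped. These values rest on 59 to 71 reads per T334A library and 63 to 75 per WT library, against 1132 to 1366 per vector library. The log2 fold change was -4.31 ± 0.09 (SE) with WT and -4.30 ± 0.09 with T334A against vector, which is 19.9-fold and 19.7-fold lower, and 0.01 ± 0.16 between T334A and WT. The 2 comparisons share their vector libraries. NFYC-AS1 was singled out with these values known, so no test is given; in each comparison with vector it ranked 6 from the lowest of 14738 genes. In a bulk sample, fewer cells with the RNA and less of it per cell cannot be told apart.

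NFYC itself moved little. It had 45.6, 46.7 and 46.0 CPM in T334A libraries and 51.4, 53.2 and 54.1 CPM in WT libraries, against 49.6, 51.0 and 49.7 CPM in vector libraries. All T334A values were below, and all WT values above, the vector values. NFYC fell by 0.12 ± 0.04 on the log2 scale with T334A (edgeR adjusted p = 0.00722, or 0.066 with library totals alone), its value with WT was 0.08 ± 0.03 (adjusted p = 0.0986), and T334A was lower than WT, at -0.20 ± 0.04 (adjusted p = 5.42e-05). Relative to NFYC, NFYC-AS1 averaged 4.24 counts per 100 NFYC counts in T334A cells and 3.66 in WT cells, against 76.2 in vector cells. In the later annotation NFYC-AS1 is a single exon that shares 279 exonic bases with NFYC and starts 418 bases from it. RIMS3, the adjoining gene on the strand of NFYC-AS1, averaged 17.2 CPM in T334A cells and 12.8 CPM in WT cells, against 11.7 CPM in vector cells; it rose by 0.56 ± 0.07 on the log2 scale with T334A (adjusted p = 1.65e-07), and its value with WT was 0.14 ± 0.07 (adjusted p = 0.157). Of the other NF-Y subunits, NFYB had a log2 fold change of -0.11 ± 0.04 with WT (adjusted p = 0.0316, lost in DESeq2 at 0.0765 and without vector replicate 1 or 3 or any WT replicate, at 0.057 to 0.152) and -0.05 ± 0.04 with T334A (adjusted p = 0.288), and NFYA -0.06 ± 0.04 in both (adjusted p = 0.328 and 0.243).

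**Figure D1:**
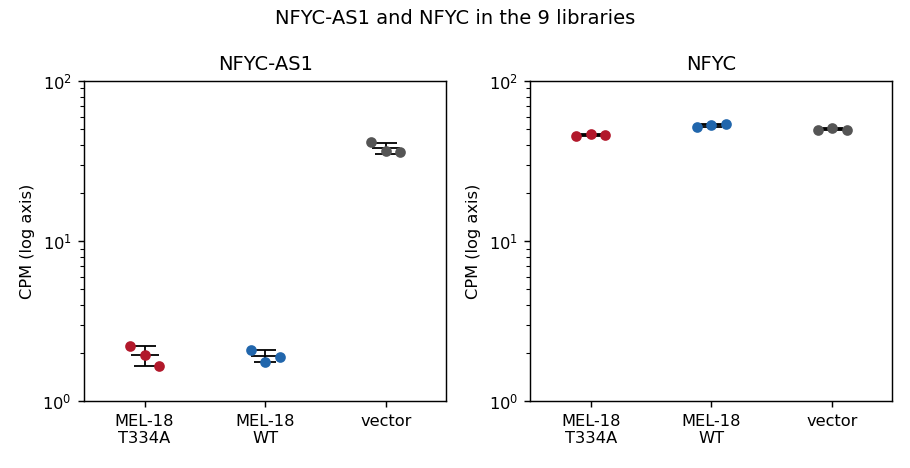
CPM of NFYC-AS1 (left) and NFYC (right) on a log axis in T334A, WT and vector libraries; points are libraries, bars the mean ± SD of 3. NFYC-AS1 sits between 1.66 and 2.20 CPM in all 6 MEL-18 libraries and between 36.1 and 41.7 CPM in the vector libraries, while NFYC stays between 45.6 and 54.1 CPM.

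Levels of the antisense RNAs were low and unequal. Their median level over the 9 libraries was 2.03 CPM, against 37.9 CPM for the sense partners and 24.5 CPM for all tested genes. Summed counts had a median of 625 and reached 122115, and LRRC75A-AS1, AFAP1-AS1 and FGD5-AS1 held 39.4% of them. As a share of all counts, the antisense RNAs made up 0.194% to 0.196% in T334A libraries and 0.204% to 0.206% in WT libraries, against 0.209% in each vector library. This share follows the few abundant RNAs and NFYC-AS1 and does not describe the class. The median log2 fold change of the other 271 antisense RNAs was -0.026 with WT and -0.009 with T334A against vector. Per kilobase of exon, the antisense RNA was above its partner in vector cells in 59 of 267 pairs, and the median partner stood 6.94-fold above its antisense RNA. Across 266 pairs these levels had a Spearman correlation of 0.02 in the vector libraries, which all pairs share.

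LRRC75A-AS1, known also as a host of small nucleolar RNAs, was the most abundant. It had 335, 337 and 351 CPM in T334A libraries and 428, 435 and 430 CPM in WT libraries, against 429, 427 and 412 CPM in vector libraries. The T334A libraries were all below the others; it fell by 0.31 ± 0.03 on the log2 scale against vector (adjusted p = 9.98e-10) and was -0.34 ± 0.03 against WT (adjusted p = 3.42e-10). Per kilobase, vector cells held 112.5 CPM of LRRC75A-AS1 and 0.948 CPM of LRRC75A. AFAP1-AS1, an RNA described in several carcinomas, had 182, 177 and 189 CPM in T334A libraries and 206, 224 and 218 CPM in WT libraries, against 235, 236 and 234 CPM in vector libraries, with no overlap between groups. FGD5-AS1 averaged over 180 CPM while its partner FGD5, an exchange factor of endothelial cells, had 1 to 6 reads in any library; it rose by 0.09 ± 0.03 with T334A (adjusted p = 0.00759). THAP9-AS1 fell by 0.27 ± 0.04 with T334A (adjusted p = 1.84e-06) and OIP5-AS1, whose zebrafish counterpart is known as cyrano, by 0.21 ± 0.04 (adjusted p = 4.69e-05), while THAP9 and OIP5 had 0.03 ± 0.11 and -0.11 ± 0.05 (adjusted p = 0.849 and 0.0954).

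Fewer antisense RNAs than genes at large were called in each comparison, at lower counts per gene. All 272 passed the filter on low counts; NFYC-AS1 is left out of the counts, which leaves 271. Of the 270 partners, 253 passed. A gene was called at an edgeR quasi-likelihood adjusted p below 0.05. With MEL-18 WT against vector 29 antisense RNAs were called (10.7%), 10 higher and 19 lower, beside 28.8% of all tested genes (14.4% higher and 14.4% lower). With T334A against vector 72 were called (26.6%), 31 higher and 41 lower, beside 45.9% of all genes (23.4% higher and 22.5% lower). Between T334A and WT 54 were called (19.9%), 28 higher and 26 lower, beside 40.9% of all genes (21.0% higher and 20% lower). The sense partners were called more often: 71 (28.1%), 129 (51%) and 113 (44.7%) in the same order. Groups did not overlap for 60, 93 and 82 antisense RNAs (22.1%, 34.3% and 30.3%), beside 42.7%, 51.5% and 48.7% of all genes. The median standard error of an antisense RNA's log2 fold change was 0.155, 0.157 and 0.154, against 0.050, 0.050 and 0.049 for all genes, and the median absolute log2 fold change was 0.16, 0.17 and 0.18, against 0.10, 0.14 and 0.12. DESeq2 called 17, 44 and 35 antisense RNAs, and also fewer of all genes (22.8%, 38.9% and 33.6%). Over the 3 comparisons 99 antisense RNAs (36.5%) were called at least once and 5 (1.85%) each time, beside 61.2% and 9.19% of all genes.

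**Figure D2:**
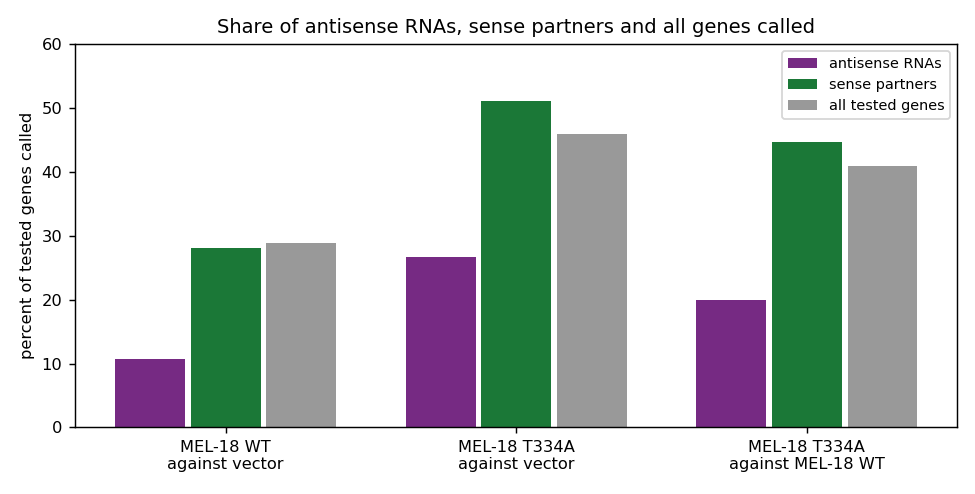
Percent of tested genes called (edgeR adjusted p below 0.05) among antisense RNAs, sense partners and all tested genes in each comparison; bars start at 0. The antisense bar (10.7%, 26.6%, 19.9%) is below the bar of all genes (28.8%, 45.9%, 40.9%) each time, while the bars of the partners (28.1%, 51%, 44.7%) are near or above those of all genes.

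With MEL-18 WT against vector, 2 called antisense RNAs (0.738%) differed by more than 2-fold, beside 1.76% of all genes, and both rose. DNMBP-AS1 had 2.24, 2.52 and 2.74 CPM in WT libraries, against 0.82, 0.74 and 0.86 CPM in vector libraries, with no overlap. It rose by 1.62 ± 0.17 on the log2 scale (adjusted p = 3.81e-08), while DNMBP, which encodes a scaffold of dynamin and an activator of CDC42, rose by 0.10 ± 0.03 (adjusted p = 0.00736). Their exons share 789 bases. Counts of DNMBP-AS1 were 0.651 per 100 of DNMBP in WT cells, against 0.229 in vector cells. PRKAG2-AS1, at the promoter shown above, had 1.40, 1.47 and 1.35 CPM in WT libraries, against 0.52, 0.56 and 0.35 CPM in vector libraries, from 45 to 54 reads against 11 to 19. It rose by 1.54 ± 0.21 (adjusted p = 2.99e-06), and PRKAG2, a regulatory subunit of the energy sensor AMPK, had -0.06 ± 0.04 (adjusted p = 0.251).

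Other antisense RNAs that rose with WT were HHIP-AS1, at 0.93 ± 0.24 (adjusted p = 0.00341), beside HHIP, a secreted antagonist of hedgehog ligands, at 1.14 ± 0.10 (adjusted p = 2.45e-09). HHIP had 5.12, 5.48 and 5.27 CPM in WT libraries, against 2.5, 2.32 and 2.36 CPM in vector libraries, and HHIP-AS1 1.34, 0.87 and 1.32 CPM, against 0.82, 0.48 and 0.54 CPM, so neither overlapped. PRKCQ-AS1 and HAS2-AS1 rose too, by 0.82 ± 0.10 (adjusted p = 3.08e-07) and 0.68 ± 0.22 (adjusted p = 0.0199), as did their partners PRKCQ, a protein kinase C of T cell signalling, at 0.48 ± 0.16, and HAS2, a hyaluronan synthase, at 0.51 ± 0.10 (adjusted p = 0.0268 and 0.000271). PSMG3-AS1 fell: it had 2.63, 2.42 and 2.29 CPM in WT libraries, against 4.12, 4.16 and 4.94 CPM in vector libraries, at -0.85 ± 0.12 (adjusted p = 3.71e-06), while PSMG3, a chaperone of proteasome assembly, had -0.12 ± 0.06 (adjusted p = 0.104); their exons share 60 bases. The tested genes around PSMG3-AS1, 20 on each side, had a median of -0.18. SH3PXD2A-AS1 fell by 0.76 ± 0.27 (adjusted p = 0.0343) and NPPA-AS1 rose by 0.70 ± 0.23 (adjusted p = 0.0226), both at under 1 CPM in every library. Those calls did not hold in every setting: without a single library HAS2-AS1 reached an adjusted p of 0.0648 to 0.085 (vector replicate 1 or 3, or WT replicate 1), SH3PXD2A-AS1 0.0735 to 0.14 (vector 2 or 3, WT 1 or 3), NPPA-AS1 0.0507 to 0.126 (vector 1 or 3, WT 2 or 3) and PRKCQ 0.0508 to 0.132 (vector 1 or 2, WT 1). In DESeq2 with all libraries each of these calls was lost too, at 0.0928, 0.136, 0.109 and 0.139 in that order.

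MEL-18 T334A against vector gave 6 called antisense RNAs past 2-fold (2.21%, beside 2.71% of all genes), 4 of them higher. PRKAG2-AS1 differed most, with 1.8, 1.73 and 1.61 CPM in T334A libraries, and rose by 1.82 ± 0.21 (adjusted p = 5.27e-08); PRKAG2 rose by 0.23 ± 0.04 (adjusted p = 2.16e-05). The vector libraries are those of the WT comparison. ZMIZ1-AS1 had 2.14, 2.60 and 1.38 CPM in T334A libraries, against 0.76, 0.68 and 1.21 CPM in vector libraries, which came close without overlap. It rose by 1.21 ± 0.23 (adjusted p = 0.000113), and ZMIZ1, a transcriptional coactivator, by 0.44 ± 0.04 (adjusted p = 1.30e-09). PLBD1-AS1 had 0.90, 0.68 and 0.65 CPM, against 0.34, 0.33 and 0.41 CPM, a rise of 1.04 ± 0.27 (adjusted p = 0.0028) beside 0.99 ± 0.07 for PLBD1 (adjusted p = 5.62e-12). CEBPA-AS1 had 0.78, 1.10 and 1.10 CPM, against 0.61, 0.59 and 0.25 CPM, a rise of 1.02 ± 0.27 (adjusted p = 0.00247) beside 0.87 ± 0.09 for CEBPA, a transcription factor of fat and myeloid differentiation (adjusted p = 7.62e-09). HAS2-AS1 and HAS2 rose by 0.86 ± 0.21 and 0.93 ± 0.10 (adjusted p = 0.00163 and 1.16e-08). PLBD1 and CEBPA were also called with WT against vector in every edgeR setting and in DESeq2 (adjusted p at most 4.87e-06 and 4.51e-07). Their antisense RNAs had 0.0601 to 0.225 and 0.0394 to 0.302 there. Between T334A and WT, PLBD1 was called in every setting (at most 0.000294) and CEBPA in none (at least 0.476).

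Lower with T334A were CCDC144NL-AS1, LURAP1L-AS1 and RHOXF1-AS1. CCDC144NL-AS1 had 0.40, 0.42 and 0.31 CPM in T334A libraries, against 0.85, 0.77 and 0.92 CPM in vector libraries, and fell by 1.16 ± 0.26 (adjusted p = 0.000566); its partner was too low to test. LURAP1L-AS1 had 0.78, 0.85 and 0.68 CPM, against 1.46, 1.64 and 1.66 CPM, and fell by 1.04 ± 0.19 (adjusted p = 4.20e-05), beside LURAP1L at -0.51 ± 0.09 (adjusted p = 7.05e-05). RHOXF1-AS1 had 3.48, 3.08 and 2.76 CPM, against 6.31, 5.62 and 6.66 CPM, and fell by 1.0 ± 0.11 (adjusted p = 3.61e-08). RHOXF1, a homeobox gene of the germ line, had 0 to 2 reads in any library, so the antisense RNA was present with almost none of its partner. HHIP-AS1 rose by 0.71 ± 0.24 (adjusted p = 0.0185; 0.0541 by DESeq2, 0.103 without vector replicate 2 and 0.0634 without vector replicate 3), beside HHIP at 0.83 ± 0.11 (adjusted p = 6.41e-07).

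Between T334A and WT, 5 called antisense RNAs differed by more than 2-fold (1.85%, beside 1.68% of all genes). CCDC144NL-AS1 was lower in T334A, at 0.40, 0.42 and 0.31 CPM against 1.15, 0.95 and 1.23 CPM in WT (log2 fold change -1.54 ± 0.24, adjusted p = 9.43e-06). PRKCQ-AS1 had 2.02, 2.46 and 2.37 CPM in T334A libraries, against 6.24, 6.30 and 7.04 CPM in WT libraries, at -1.51 ± 0.11 (adjusted p = 1.73e-11), and PRKCQ had 0.71, 0.59 and 0.65 CPM, against 2.04, 1.76 and 1.66 CPM, at -1.48 ± 0.19 (adjusted p = 4.50e-07). The vector libraries, at 3.54, 3.98 and 3.54 CPM of PRKCQ-AS1, lay between the MEL-18 groups without overlap: T334A was lower than vector, at -0.69 ± 0.12 (adjusted p = 4.30e-05), where WT was higher. DNMBP-AS1 was lower in T334A, at 1.06, 0.76 and 0.99 CPM, by -1.42 ± 0.16 (adjusted p = 1.08e-07), and its T334A libraries overlapped the vector ones. PSMG3-AS1 was higher in T334A, at 5.77, 5.57 and 4.85 CPM, by 1.14 ± 0.11 (adjusted p = 8.97e-09), beside PSMG3 at 0.22 ± 0.05 (adjusted p = 0.00187) and a median of 0.32 over the genes around it. ZMIZ1-AS1 was higher by 1.15 ± 0.23 (adjusted p = 0.000179) beside ZMIZ1 at 0.52 ± 0.04 (adjusted p = 9.19e-11), and RHOXF1-AS1 lower by -0.93 ± 0.11 (adjusted p = 1.53e-07). TGFB2-AS1 was higher by 0.93 ± 0.29 (adjusted p = 0.0121, or 0.0558 by DESeq2), beside TGFB2, a growth factor ligand, at 0.28 ± 0.03 (adjusted p = 1.88e-07). DBH-AS1 was higher by 0.94 ± 0.22 (adjusted p = 0.000995), beside DBH, the enzyme that makes noradrenaline, at 0.33 ± 0.30 (adjusted p = 0.402).

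**Figure D3:**
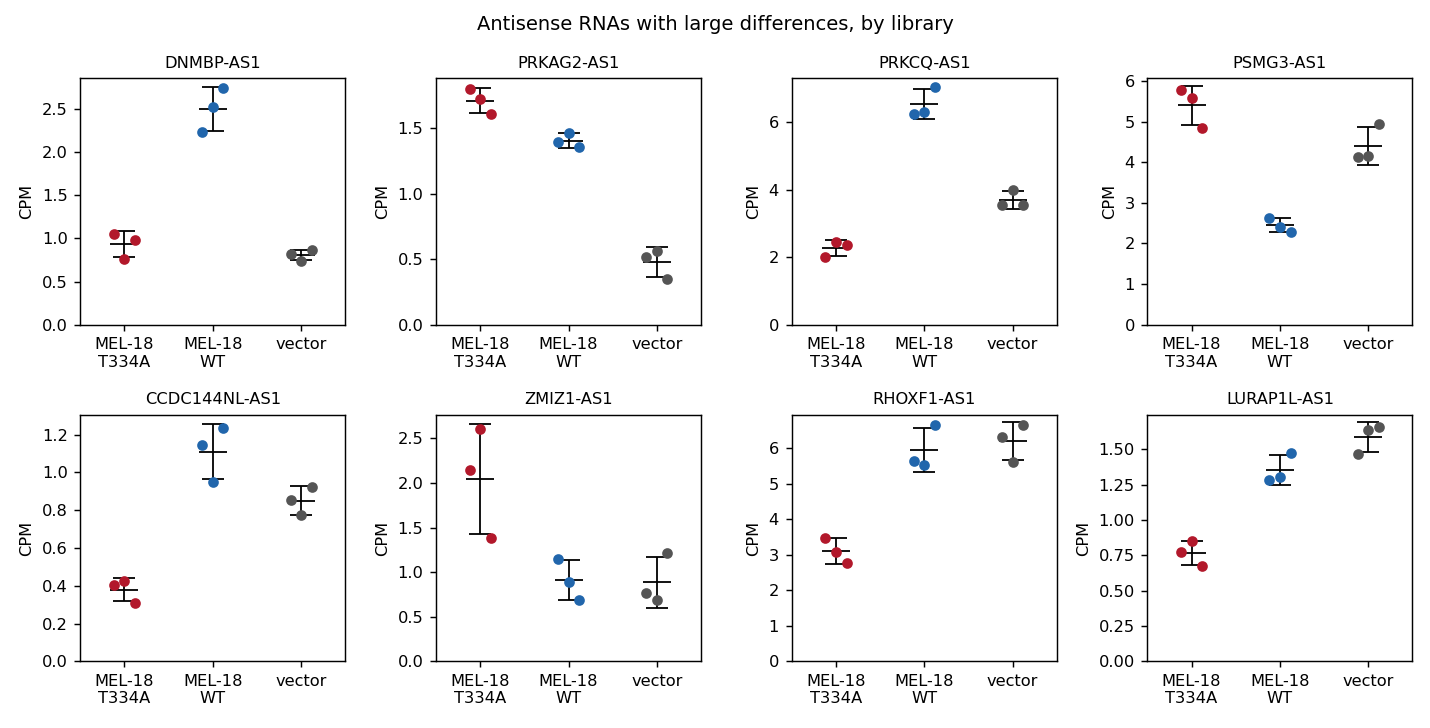
CPM of 8 antisense RNAs in T334A, WT and vector libraries (linear axes from 0); points are libraries, bars the mean ± SD of 3. DNMBP-AS1 is high in WT libraries (2.24 to 2.74 CPM), PRKAG2-AS1 in both MEL-18 groups (1.35 to 1.8 CPM), and PRKCQ-AS1 and PSMG3-AS1 differ from vector in opposite directions in T334A and WT.

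The 5 antisense RNAs called in all 3 comparisons followed 2 patterns. PRKCQ-AS1 and PSMG3-AS1 were called in opposite directions with T334A and WT against vector. The T334A libraries of PSMG3-AS1 overlapped the vector ones, and its rise with T334A, 0.29 ± 0.10 (adjusted p = 0.0208), was lost in DESeq2 (0.0749) and without vector replicate 1 or 2 or T334A replicate 1 or 2 (0.0643 to 0.0842). SLCO4A1-AS1, AFAP1-AS1 and OIP5-AS1 were lower than vector in both MEL-18 groups. SLCO4A1-AS1 had 9.87, 10.1 and 8.12 CPM in T334A libraries and 7.38, 7.82 and 7.97 CPM in WT libraries, against 11.1, 10.4 and 12.1 CPM in vector libraries; it fell by 0.26 ± 0.08 and by 0.54 ± 0.08 (adjusted p = 0.0086 and 1.04e-05). Its partner SLCO4A1, an organic anion transporter, fell more, by 0.92 ± 0.11 with T334A and by 1.18 ± 0.11 with WT (adjusted p = 1.44e-07 and 7.63e-09). Single libraries carried some of these calls: SLCO4A1-AS1 with T334A had an adjusted p of 0.0705 without vector replicate 3 and 0.0862 without T334A replicate 3, and between T334A and WT 0.0731 without T334A replicate 2. AFAP1-AS1 with WT had 0.0642 without WT replicate 1, and OIP5-AS1 with WT (-0.11 ± 0.04, adjusted p = 0.0257) and between T334A and WT (-0.10 ± 0.04, adjusted p = 0.0349) lost its call in DESeq2 and without several of the libraries, at up to 0.111 and 0.152.

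Antisense RNA and partner more often differed in the same than in opposite directions, as neighbouring genes did too. Of 252 pairs with both genes tested, 11 (4.37%) were called in the same direction and 1 (0.397%) in opposite directions with WT against vector, beside 8.58% and 2.38% of neighbouring tested genes. With T334A against vector 36 (14.3%) and 8 (3.17%) were, beside 16.5% and 6.93%, and between T334A and WT 16 (6.35%) and 5 (1.98%), beside 14.8% and 4.20%. The 11 pairs of the WT comparison came to 5, 7 and 6 without vector replicate 1, 2 and 3, to 5 and 7 without WT replicate 1 and 2, and to 4 in DESeq2. Without T334A replicate 2 the 36 came to 23 and the 16 to 9, and without WT replicate 3 the 16 also came to 9. The log2 fold changes of antisense RNA and partner had a Pearson correlation of 0.33, 0.39 and 0.40 over the 252 pairs (Spearman 0.27, 0.35 and 0.31), and neighbouring tested genes had 0.10, 0.13 and 0.12 (Spearman 0.23, 0.22 and 0.26). Over the 47 pairs that do not overlap it was 0.60, 0.71 and 0.71 (Spearman 0.23, 0.66 and 0.39), over the 167 with exon overlap 0.31, 0.32 and 0.25 (Spearman 0.29, 0.30 and 0.28), and over the 35 with bodies overlapping but exons apart 0.09, 0.27 and 0.35 (Spearman 0.19, 0.07 and 0.26). The points share their libraries, and where exons overlap they could share reads.

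Of 101 tested pairs whose starts lie within 1000 bases, 3 (2.97%) were called in the same direction and 0 in opposite directions with WT against vector, 18 (17.8%) and 2 (1.98%) with T334A against vector, and 7 (6.93%) and 1 (0.990%) between T334A and WT; the shares in the same direction are near or below those of neighbouring genes given above. OTUD6B-AS1, which starts 7 bases from the gene of the deubiquitinase OTUD6B, had 39.8, 37.0 and 39.5 CPM in T334A libraries, against 46.2, 40.7 and 45.5 CPM in vector libraries. It fell by 0.19 ± 0.04 (adjusted p = 0.00112) and OTUD6B by 0.17 ± 0.05 (adjusted p = 0.00547; 0.0879 without vector replicate 1, 0.0537 without T334A replicate 2). BOLA3-AS1 and BOLA3, an iron-sulfur cluster factor, start 15 bases apart and fell by 0.43 ± 0.11 and 0.27 ± 0.06 with T334A (adjusted p = 0.00257 and 0.00104). NUP50-AS1 and NUP50, a nuclear pore protein, start 60 bases apart and fell by 0.20 ± 0.06 and 0.13 ± 0.03 (adjusted p = 0.00955 and 0.000989). The tested genes around these pairs, 20 on each side, had a median log2 fold change with T334A of -0.005 for OTUD6B, -0.235 for BOLA3 and 0.168 for NUP50. The fall of BOLA3 was thus near that of the genes around it. BOLA3 and NUP50 were picked after their values were seen.

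**Figure D4:**
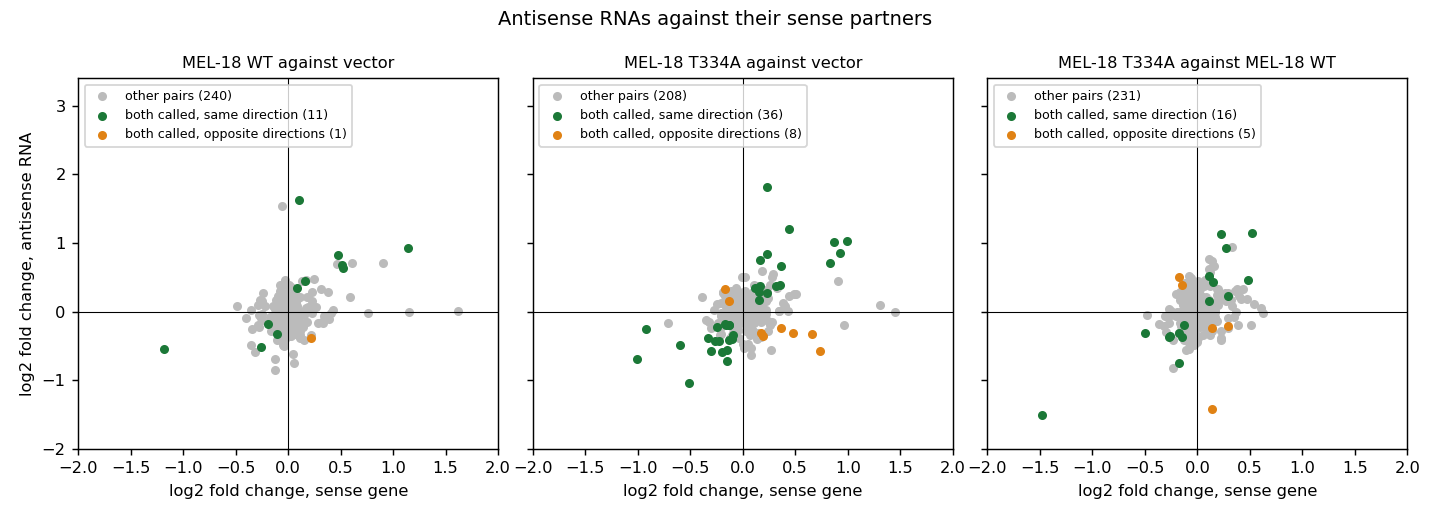
Log2 fold change of each antisense RNA (vertical) against its sense partner (horizontal) in the 3 comparisons, one point per pair (252, NFYC-AS1 left out); green pairs were called in the same direction and orange pairs in opposite directions. Green points number 11, 36 and 16 and orange points 1, 8 and 5.

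Pairs that went in opposite directions were few and their ratios are shown by library. PLCE1-AS1 had 1.46, 1.92 and 1.89 CPM in T334A libraries and 2.04, 2.06 and 1.93 CPM in WT libraries, against 2.62, 2.59 and 2.71 CPM in vector libraries. PLCE1, a phospholipase C that acts downstream of Ras, had 61.6, 61.3 and 59.9 CPM and 43.4, 42.6 and 41.8 CPM, against 36.6, 35.3 and 38.0 CPM. All MEL-18 libraries were below vector for the antisense RNA and above it for the gene. PLCE1-AS1 fell by 0.58 ± 0.14 with T334A and by 0.39 ± 0.13 with WT (adjusted p = 0.00117 and 0.0288), and PLCE1 rose by 0.73 ± 0.04 and by 0.22 ± 0.04 (adjusted p = 8.74e-15 and 7.28e-05). The WT call of PLCE1-AS1, the one opposite pair of that comparison, was lost without any 1 of the vector or WT libraries (adjusted p 0.0597 to 0.0917) and in DESeq2 (0.118). Counts of PLCE1-AS1 per 100 of PLCE1 averaged 2.91 in T334A and 4.75 in WT cells, against 7.25 in vector cells. A ratio within a library needs no scaling, and with 3 libraries against 3 the exact two-sided permutation test cannot go below 0.1, the value it gave for each comparison of this ratio. Against vector that value follows from the choice of a pair whose members moved apart, so it adds no support.

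AFAP1-AS1 fell by 0.36 ± 0.03 with T334A (adjusted p = 4.88e-10), while AFAP1, an actin filament-associated protein, rose by 0.19 ± 0.04 (adjusted p = 0.000322). LRRC75A rose by 0.48 ± 0.10 (adjusted p = 0.000465) as LRRC75A-AS1 fell. Exons of AFAP1-AS1 share 523 bases with AFAP1, those of LRRC75A-AS1 452 with LRRC75A, those of TTC28-AS1 933 with TTC28, those of EMC3-AS1 228 with EMC3 and those of PLCE1-AS1 130 with PLCE1, while exons of ZFPM2-AS1 share none with ZFPM2. TTC28-AS1 had 28.3, 28.0 and 29.9 CPM in T334A libraries, against 35.7, 33.9 and 32.3 CPM in vector libraries, a fall of 0.24 ± 0.05 (adjusted p = 8.74e-05), and TTC28 51.3, 48.0 and 49.6 CPM, against 36.6, 39.1 and 39.7 CPM, a rise of 0.37 ± 0.04 (adjusted p = 1.85e-08). ZFPM2-AS1 fell by 0.32 ± 0.06 and ZFPM2, a cofactor of GATA factors, rose by 0.66 ± 0.10 (adjusted p = 0.000107 and 8.95e-06). Between T334A and WT this pair went in the same direction, at -0.31 ± 0.06 and -0.50 ± 0.09 (adjusted p = 0.000173 and 4.71e-05). With WT against vector, LRRC75A, TTC28 and ZFPM2 also rose in every edgeR setting and in DESeq2 (adjusted p at most 0.0162, 4.24e-07 and 6.43e-08). Their antisense RNAs were called in none of these (at least 0.181, 0.495 and 0.561). In AFAP1 and EMC3 it was the gene that was never called with WT (at least 0.187 and 0.150). With T334A against vector, EMC3-AS1 fell by 0.32 ± 0.07 and EMC3, a subunit of the endoplasmic reticulum membrane complex, rose by 0.17 ± 0.04 (adjusted p = 0.000418 and 0.000412). In ZBED5 and MAFG the antisense RNA rose and the gene fell: ZBED5-AS1 by 0.15 ± 0.06 (adjusted p = 0.0475, lost in DESeq2 at 0.118 and without vector replicate 2 or 3, T334A replicate 1 or 2 or WT replicate 1, at 0.0534 to 0.165) and MAFG-AS1 by 0.33 ± 0.11 (adjusted p = 0.0164; 0.0764 without vector replicate 1 and 0.10 without T334A replicate 2), against -0.13 ± 0.04 and -0.17 ± 0.03 (adjusted p = 0.0185 and 0.000108). ZBED5 itself had an adjusted p of 0.212 without vector replicate 1 and 0.0871 without T334A replicate 1.

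**Figure D5:**
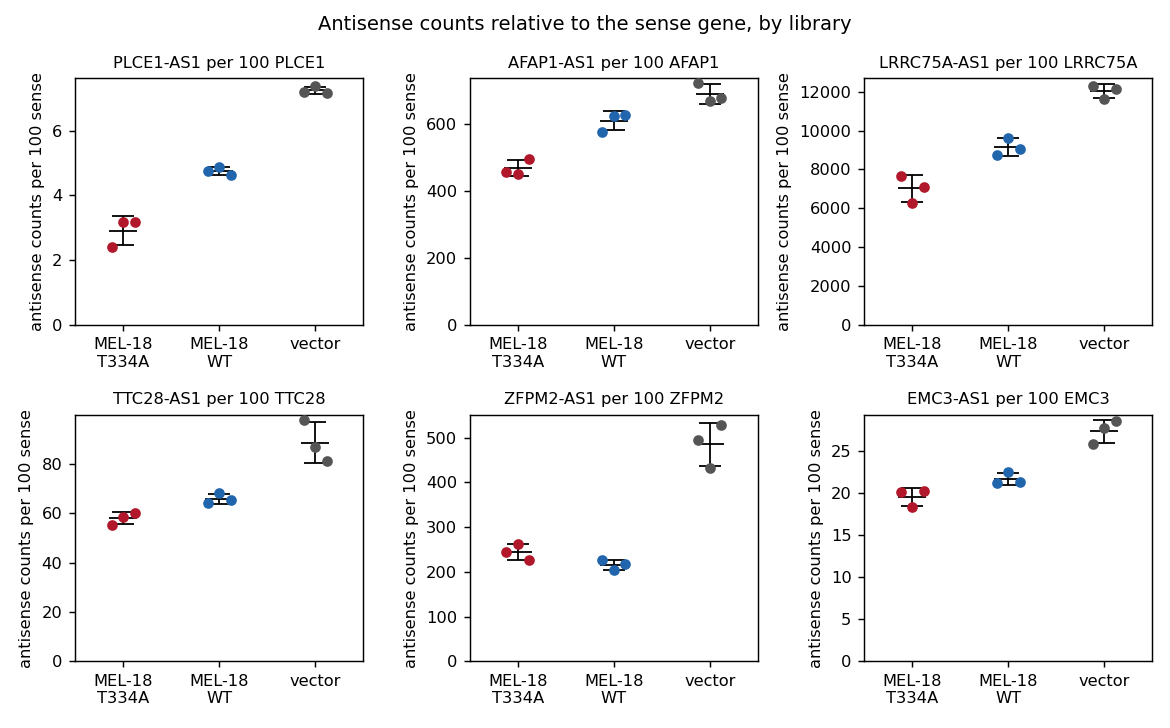
Antisense counts per 100 sense counts in T334A, WT and vector libraries for the 6 of 8 pairs called in opposite directions in T334A against vector in which the antisense RNA fell; ZBED5 and MAFG, in which it rose, are not plotted (linear axes from 0); points are libraries, bars the mean ± SD of 3. Each T334A and WT library is below each vector library in these pairs. For T334A that direction follows from the choice of pairs. For WT it is not independent of that choice, which used the same vector libraries. AFAP1-AS1 averages 469 per 100 in T334A, 610 in WT and 690 in vector cells.

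Between T334A and WT the opposite pairs were DNMBP, TNRC6C, GMDS, AFAP1 and VPS9D1. TNRC6C-AS1 had 9.46, 9.19 and 8.23 CPM in T334A libraries, against 6.68, 6.60 and 5.63 CPM in WT libraries, and was higher by 0.50 ± 0.09 (adjusted p = 3.38e-05), while TNRC6C, a GW182 protein of microRNA silencing, was lower by -0.18 ± 0.04 (adjusted p = 0.000684). Against vector both rose with T334A, by 0.35 ± 0.09 and 0.14 ± 0.04 (adjusted p = 0.00137 and 0.00699). Between T334A and WT, GMDS-AS1 was higher by 0.39 ± 0.11 and GMDS, an enzyme of GDP-fucose synthesis, lower by -0.15 ± 0.04 (adjusted p = 0.00443 and 0.00473), with starts 56 bases apart. VPS9D1-AS1 was lower by -0.21 ± 0.07 and VPS9D1 higher by 0.30 ± 0.11 (adjusted p = 0.0204 and 0.0402), both lost without T334A replicate 1 (0.0935 and 0.111) or WT replicate 2 (0.142 and 0.202), and VPS9D1 also without T334A replicate 2 (0.281) and by DESeq2 (0.0725). Leaving out T334A replicate 3 gave 11 opposite pairs in place of 5. Over all pairs, the ratio of antisense to sense did not overlap between groups in 69 of 252 (27.4%) with WT against vector, 63 (25%) with T334A against vector and 64 (25.4%) between T334A and WT, beside 36.8%, 43.5% and 38.6% of neighbouring genes. Without T334A replicate 3 the 63 came to 97 and the 64 to 100. These were the tops of ranges of 77 to 97 and 83 to 100 with single libraries left out. Leaving out any library of the groups compared can only add pairs that do not overlap. Why T334A replicate 3 added the most was not tested.

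Partners that encode developmental transcription factors, a class that Polycomb complexes are known to silence, were picked with the values known. Of 17 such antisense RNAs (homeobox, forkhead, SOX, GATA, T-box, PAX and related partners), 1 was lower with WT against vector (5.88%, beside 28.8% of all genes), 5 were higher and 2 lower with T334A against vector (41.2%, beside 45.9%), and 2 higher and 1 lower in T334A against WT (17.6%, beside 40.9%). Of their 15 tested partners, 2 rose with WT (13.3%), 6 rose and 1 fell with T334A (46.7%), and 5 were higher in T334A than in WT (33.3%). PAX8-AS1 fell by 0.22 ± 0.05 with T334A and by 0.20 ± 0.05 with WT (adjusted p = 0.000492 and 0.0027), while PAX8 had -0.21 ± 0.10 and -0.16 ± 0.10 (adjusted p = 0.0915 and 0.251), and RHOXF1-AS1, given above, fell with T334A. MNX1-AS1 had 3.10, 3.25 and 3.35 CPM in T334A libraries and 2.35, 2.31 and 2.29 CPM in WT libraries, against 1.95, 2.14 and 2.39 CPM in vector libraries. It rose by 0.59 ± 0.12 with T334A (adjusted p = 0.000338), and MNX1, a motor neuron homeobox gene, had 0.19 ± 0.11 (adjusted p = 0.192). NR2F1-AS1 and the nuclear receptor gene NR2F1 rose by 0.17 ± 0.04 and 0.15 ± 0.03 with T334A (adjusted p = 0.00302 and 0.000452). NKX2-1-AS1 and NKX2-1, a lung and thyroid factor, rose by 0.75 ± 0.27 and 0.16 ± 0.04 (adjusted p = 0.0223 and 0.00138). Without T334A replicate 2 or 3 or vector replicate 2 the RNA had 0.0523 to 0.124, and by DESeq2 0.087. For the mesenchymal genes of this line, VIM-AS1 had -0.28 ± 0.14 and ZEB1-AS1 0.02 ± 0.10 with T334A (adjusted p = 0.0981 and 0.897), beside VIM at 0.09 ± 0.03 (adjusted p = 0.00661) and ZEB1 at -0.07 ± 0.03 (adjusted p = 0.0851). EGFR-AS1, at under 1 CPM, had -0.15 ± 0.28 (adjusted p = 0.684) while EGFR, at 487, 479 and 467 CPM in T334A libraries against 412, 428 and 428 CPM in vector libraries, rose by 0.18 ± 0.03 (adjusted p = 7.71e-06).

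Antisense and other long noncoding RNAs outside the rule gave a reference. Of 20 symbols ending in -AS or -AS2 to -AS5, 1, 2 and 2 were called with WT against vector, T334A against vector and T334A against WT (5%, 10% and 10%, beside 28.8%, 45.9% and 40.9% of all genes). CTBP1-AS2 rose by 0.27 ± 0.06 with T334A (adjusted p = 0.000424), and MKLN1-AS fell by 0.34 ± 0.11 with WT (adjusted p = 0.025; 0.0976 by DESeq2, 0.0549 to 0.14 without vector replicate 2 or WT replicate 1 or 3). ZNF503-AS2 fell by 0.43 ± 0.15 with T334A (adjusted p = 0.0214; 0.077 by DESeq2, 0.148 without vector replicate 3 and 0.104 without T334A replicate 3), and GAS6-AS2 was higher in T334A than in WT by 0.45 ± 0.14 (adjusted p = 0.0105; 0.0654 without T334A replicate 2 and 0.0646 without WT replicate 2). Of 9 intronic or overlapping transcripts, SPRY4-IT1 fell with WT (-0.26 ± 0.09, adjusted p = 0.0315, or 0.0619 by DESeq2; 0.0705 to 0.188 without vector replicate 2 or 3 or WT replicate 1 or 2); with T334A edgeR called none against vector or WT, 0 had an unadjusted p below 0.05 and DESeq2 called 0. Of 17 tested long noncoding RNAs of other names, 3, 10 and 8 were called (17.6%, 58.8% and 47.1%, beside 28.8%, 45.9% and 40.9% of all genes), 8 lower with T334A against vector and 8 lower against WT, where 22.5% and 20% of all genes were lower. MALAT1 had 170, 146 and 150 CPM in T334A libraries and 194, 175 and 190 CPM in WT libraries, against 205, 200.3 and 213 CPM in vector libraries, and fell by 0.41 ± 0.04 with T334A and by 0.15 ± 0.04 with WT (adjusted p = 1.65e-08 and 0.00939; with WT 0.116 by DESeq2, 0.0657 without vector replicate 3 and 0.113 without WT replicate 2). DANCR fell by 0.26 ± 0.04 with T334A (adjusted p = 3.16e-05), SNHG12 by 0.16 ± 0.05 (adjusted p = 0.0162; 0.0663 to 0.147 without vector replicate 2 or T334A replicate 1 or 2), and H19 rose by 1.05 ± 0.25 (adjusted p = 0.00112).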

How the data were processed

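The deposited files held whole-number read counts per gene symbol for 9 libraries, with no normalization; the authors made these counts with CASAVA 1.8, STAR 2.5.3a and featureCounts (Subread 1.5.3) on hg19, per the submitters' processing notes. Which annotation and strand setting were used, and how reads with several hits were treated, is not given in the sources used here, so overlapping pairs and near-identical copies are uncertain. Genes were filtered with filterByExpr, scaled by TMM and tested in edgeR 4.0.16 (R 4.3.3) with the two-sided quasi-likelihood test on all 9 libraries and a mean per group; p-values were adjusted by Benjamini-Hochberg over 14738 genes and called below 0.05. Standard errors were derived from each log2 fold change and its F statistic, CPM use the scaled library sizes, and n = 3 libraries a group throughout. The tests were tried on simulated counts with known changes. Antisense to sense ratios per library used counts with 0.5 added. Neighbouring genes are consecutive tested genes in the order of their RefSeq starts on a chromosome, and figures were drawn with matplotlib.

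The antisense RNAs and the lists were chosen with earlier results of these data known. Named were NFYC-AS1 and NFYC; per comparison the 8 called antisense RNAs of largest change and up to 4 pairs called in opposite directions; the 6 of highest level; those called in all 3 comparisons; the symbols next to the count minimum; and up to 4 called genes from each list, with partners. PRKAG2-AS1 and others that meet several conditions count under each. Pairs at developmental factors, VIM, ZEB1, EGFR, RIMS3, BOLA3, NUP50, ZBED5, MAFG and VPS9D1 were added after their values were seen. Alternatives were RLE factors, library totals, no filter, DESeq2 1.42.0, a replicate block, only the 2 groups compared, a minimum of 450 counts, a pseudocount of 2 and each library left out.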

Additional observations from a re-analysis of the deposited data

How the results depend on the processing

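With each library left out in turn, antisense RNAs called numbered 20 to 31 with WT against vector, 49 to 69 with T334A against vector and 39 to 57 between T334A and WT. In the same order the called partners numbered 49 to 77, 116 to 133 and 92 to 124; pairs in the same direction 5 to 12, 23 to 35 and 9 to 20; pairs in opposite directions 0 to 1, 6 to 9 and 4 to 11; all genes 3430 to 4666, 5843 to 6857 and 4953 to 6315. Ratios that did not overlap numbered 87 to 103, 77 to 97 and 83 to 100, above the counts with all libraries, since fewer libraries overlap less. DESeq2 called 17, 44 and 35 antisense RNAs, 4 same-direction and 0 opposite pairs with WT against vector, and 9 same-direction pairs between T334A and WT; the cause was not tested. Library totals alone gave 2 opposite pairs with WT against vector, and the share of all calls that were higher was 60.1%, 64% and 58.4%, in place of 50.1%, 51.1% and 51.2%; among antisense RNAs it was 40.7%, 53% and 58.8%, in place of 34.5%, 43.1% and 51.9%. A minimum of 450 counts left 159 antisense RNAs, and by construction fewer called partners (42, 82 and 67) and 6 same-direction pairs with WT against vector. Replicate numbers did not pair the libraries: same-numbered libraries correlated at -0.08 to 0.01 in their deviations, and the replicate block gave 28, 64 and 51 called antisense RNAs. Of 321 single-gene values a setting, a call was lost in 29 with DESeq2, 10 with library totals, 7 with no filter, 7 with the replicate block, 5 with only the 2 groups compared and 0 with RLE factors; no called value changed sign in any setting. Depth limits the antisense RNAs near the count minimum.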
